A study of Mus musculus with 6 samples.

Results

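The 4 mouse Hox clusters were read on a methylation tiling array through 410 of its 174638 non-control probes. These probes were taken by position alone, as those starting inside one window per cluster on mouse build mm9. The windows were chr6:52100000-52225000 for HoxA (125 probes), chr11:96030000-96245000 for HoxB (101 probes), chr15:102740000-102875000 for HoxC (78 probes) and chr2:74485000-74610000 for HoxD (106 probes). Pancreatic tissue came from offspring at 12 weeks of age, with 3 arrays for offspring of dams with glucose intolerance and 3 for offspring whose dams had normal glucose tolerance. The labels give no strain, sex or way in which the dams became glucose intolerant, and whether each array stands for its own animal or litter is not stated either. The p-values therefore measure the spread between these arrays, which may be partly technical. The sample titles call the tissue pancreatic and do not say whether it is the whole organ, in which exocrine, duct, endocrine and other cells mix. Its identity was not checked against marker genes, since the scanner files pair probes with coordinates and not with genes.

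Hox genes encode homeodomain transcription factors that give embryonic cells their position along the body axis. They lie side by side in 4 clusters, and within a cluster the order of the genes follows the order of their expression domains from head to tail. Their promoters are rich in CpG, the dinucleotide at which mammalian DNA is methylated. In many tissues these promoters are held by Polycomb proteins and are known to gain methylation in ageing and in tumours. In methylated DNA immunoprecipitation (MeDIP), an antibody against methylated cytosine pulls down DNA fragments, which are hybridised here with the Cy5 dye beside untreated input DNA of the same sample with the Cy3 dye. The value of a probe was log2 of MeDIP over input, shifted so that the median non-control probe of each array is at 0, and is called the ratio below. It depends on the number of CpGs around a probe and on the probe's own sequence as well as on methylation, so a ratio below 0 is not a measure of how many DNA copies lack methylation.

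A RefSeq gene table for build GRCm38.p6 lists 39 Hox genes, 11 in HoxA, 10 in HoxB, 9 in HoxC and 9 in HoxD. In order of coordinate HoxB runs between Hoxb13 and Hoxb1, HoxC between Hoxc13 and Hoxc4 and HoxD between Hoxd13 and Hoxd1. A low coordinate is thus the tail-side end of these 3 clusters. Because this table and the array are on different builds, no probe was assigned to a gene or a promoter. RefSeq promoters were found for 22 of these genes, with 24 start sites. In the 250 bases before the start the Hox promoters held a median of 12.5 CpGs (the letters CG, which read the same on both strands; range 2 to 35), against a median of 6 over all 32851 promoters of the table. All 24 Hox promoters held at least 1 CpG, as did 92.1% of all promoters. Promoters are printed to show the density of the dinucleotide that the assay can read, with each CG in capitals. Each has the most CpGs among those found in its cluster. These are Hoxa13 (chr6:52260881-52261130, minus strand), Hoxb4 (chr11:96318017-96318266, plus strand), Hoxc4 (chr15:103034145-103034394, plus strand) and Hoxd13 (chr2:74667975-74668224, plus strand), all on GRCm38.p6. The genes stand for different body levels, Hoxa13 and Hoxd13 acting in the distal limb and hindgut and Hoxb4 and Hoxc4 in the neck region. In HoxC only the Hoxc4 promoter was found, and in HoxB only those of Hoxb8, Hoxb4 and Hoxb1. The printed promoters therefore do not rank the clusters by CpG density.
Hoxa13: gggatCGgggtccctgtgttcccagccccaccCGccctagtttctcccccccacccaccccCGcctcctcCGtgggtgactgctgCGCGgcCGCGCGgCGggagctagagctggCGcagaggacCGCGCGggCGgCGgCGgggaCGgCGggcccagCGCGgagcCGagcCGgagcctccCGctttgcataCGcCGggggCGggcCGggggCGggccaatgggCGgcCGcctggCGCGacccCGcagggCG
Hoxb4: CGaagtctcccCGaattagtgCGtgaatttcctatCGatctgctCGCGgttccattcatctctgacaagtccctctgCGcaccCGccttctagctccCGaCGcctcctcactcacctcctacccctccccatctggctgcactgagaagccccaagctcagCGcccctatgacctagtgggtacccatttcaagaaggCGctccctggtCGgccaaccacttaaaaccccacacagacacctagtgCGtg
Hoxc4: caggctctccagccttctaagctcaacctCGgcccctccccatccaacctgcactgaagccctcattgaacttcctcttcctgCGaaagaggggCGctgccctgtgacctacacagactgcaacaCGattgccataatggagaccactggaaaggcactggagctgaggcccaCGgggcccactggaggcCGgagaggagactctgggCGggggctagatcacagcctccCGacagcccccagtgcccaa
Hoxd13: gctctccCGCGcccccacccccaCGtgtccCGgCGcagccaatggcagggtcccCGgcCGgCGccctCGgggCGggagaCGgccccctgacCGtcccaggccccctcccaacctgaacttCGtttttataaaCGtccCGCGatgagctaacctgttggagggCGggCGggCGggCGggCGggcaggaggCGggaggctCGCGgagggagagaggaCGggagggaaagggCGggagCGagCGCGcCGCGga
Hoxa13 held 35 CpGs and Hoxd13 31, whereas Hoxb4 held 14 and Hoxc4 8, so CpG density differed several-fold among promoters of one gene family. The array's ratios are not comparable between such places for this reason.

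Of the 410 Hox probes, 293 had an input signal well above background on all 6 arrays. The other 117 were left out, 36 in HoxA, 31 in HoxB, 19 in HoxC and 31 in HoxD. A further 10 had fewer than 2 values in a group once spots marked as outliers were removed, which left 283 tested probes (87 in HoxA, 65 in HoxB, 56 in HoxC and 75 in HoxD). Of these, 263 lay in 48 runs, a run being at least 3 kept probes with starts at most 500 bp apart, and each run is named by its cluster and its order of coordinate. Input signal was weaker in the glucose intolerance group: 75.4% to 87.1% of Hox probes had input above background on its arrays, against 90.5% to 94.4% on the normal tolerance arrays. The MeDIP signal was above background for 82.2% to 89.8% of Hox probes on the glucose intolerance arrays and for 83.7% to 85.9% on the normal tolerance arrays. The 3 glucose intolerance arrays shared 1 scan, normal tolerance array 1 had a scan of its own and normal tolerance arrays 2 and 3 shared another, so that no scan held both groups and scan and group cannot be told apart. Normal tolerance array 1 departed from the other arrays of its group at several of the Hox runs described below. Over Hox runs it correlated with glucose intolerance arrays 1, 2 and 3 at r = 0.95, 0.88 and 0.94. With normal tolerance arrays 2 and 3 it correlated at 0.83 and 0.87. Over all runs these values were 0.95, 0.86 and 0.92, and 0.89 and 0.90.

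The ratios along the clusters formed a profile that recurred on the arrays of both groups. Run means over the 6 arrays lay between -2.11 and 0.80, with an SD of 0.56 across the 48 runs, whereas the median SD of one run across arrays was 0.19. Over all 18562 runs of the array these SDs were 0.70 and 0.21, so such a repeating profile was not particular to the Hox runs. The ratio had the same sign on all 6 arrays in 28 runs, positive in 12 and negative in 16. Across the 48 runs the group means correlated at r = 0.93 (0.91 in the 14 HoxA runs, 0.98 in the 12 HoxB runs, 0.76 in the 9 HoxC runs and 0.94 in the 13 HoxD runs). These correlations run across places that share the same probes on every array, so they describe how well the profile repeats and are given with no p. Between pairs of arrays the correlation over Hox runs was 0.91 to 0.95 within the glucose intolerance group and 0.83 to 0.88 within the normal tolerance group, and 0.80 to 0.95 between the groups. Over all runs it was 0.91 to 0.95, 0.89 to 0.92 and 0.78 to 0.95.

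**Figure D1:**
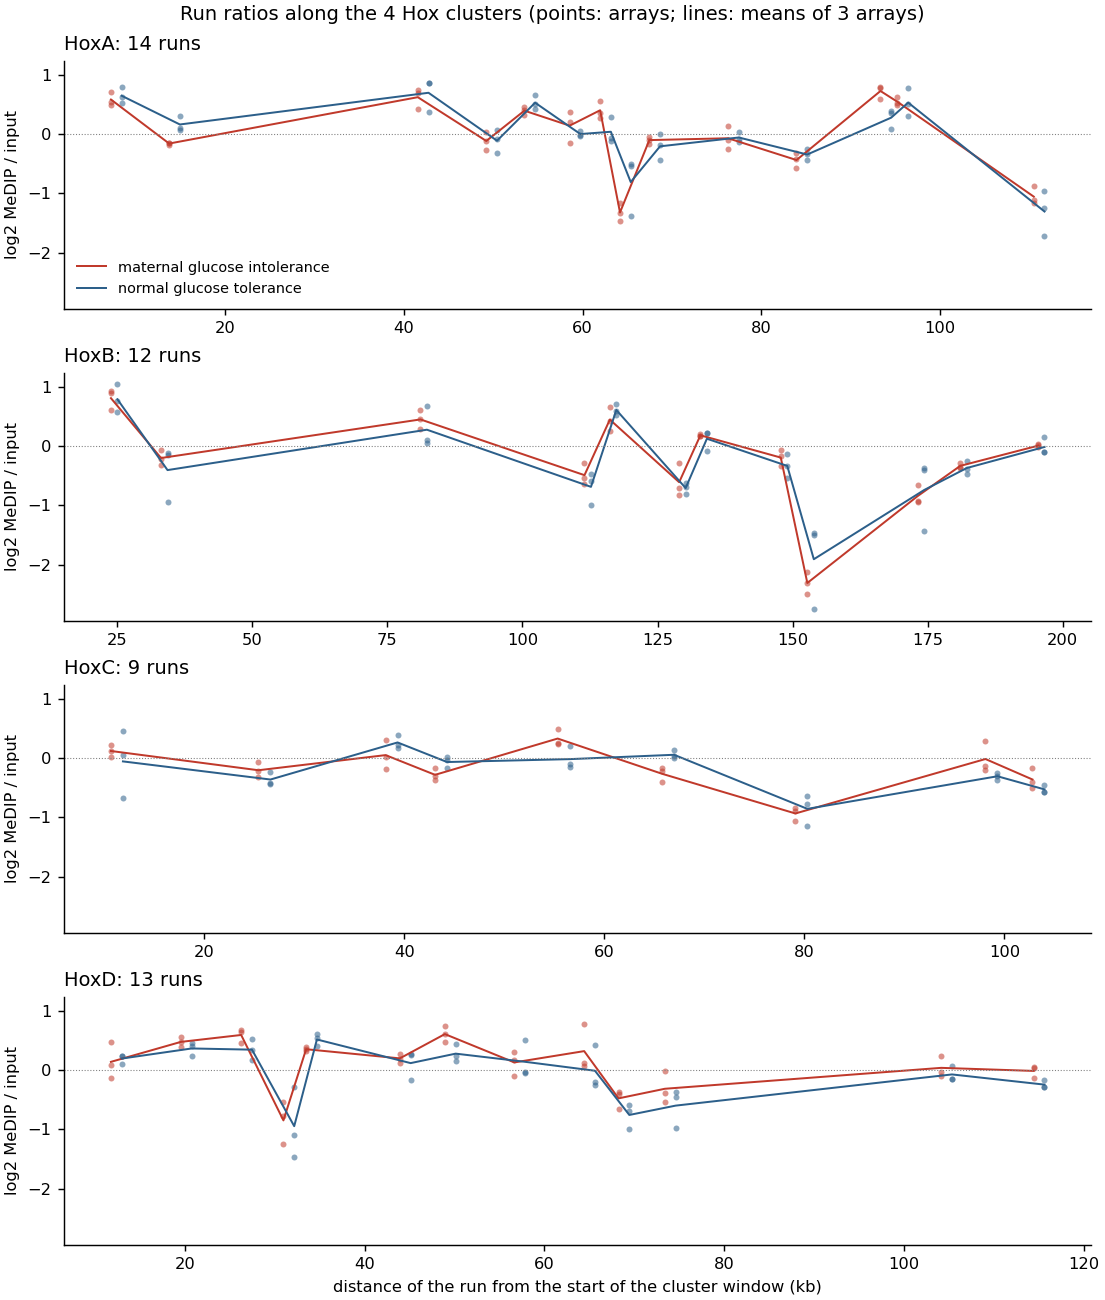
Mean log2 MeDIP over input of each run (y axis) against the distance of the run from the start of its cluster window in kb (x axis), for maternal glucose intolerance (red) and normal glucose tolerance (blue). Points are single arrays, lines join the means of 3 arrays and cross stretches with no run; both groups follow the same profile, with the deepest dip in HoxB at -2.31 and -1.91.

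HoxA had its highest run in its low-coordinate part and its lowest at the high-coordinate end. HoxA run 3 (chr6:52142158-52142612, 3 probes) had ratios of 0.70, 0.74 and 0.42 on the glucose intolerance arrays and of 0.87, 0.85 and 0.37 on the normal tolerance arrays. All 6 values were above 0 and the groups overlapped. HoxA run 14 (chr6:52211100-52213092, 8 probes) was at -1.11, -0.88 and -1.17 on the glucose intolerance arrays and at -1.72, -0.96 and -1.24 on the normal tolerance arrays. These were below 0 on every array, with the lowest value on normal tolerance array 1. Within the run single probes ranged between means of -3.73 and 0.23, so its level was not uniform, and MeDIP was above background at 21 of its 24 spots on the glucose intolerance arrays and at 17 of 24 on the normal tolerance arrays.

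Under the settings reported HoxB held both the highest and the lowest of the 48 runs. HoxB run 1 (chr11:96054405-96055220, 4 probes), at the low-coordinate end, had ratios of 0.89, 0.61 and 0.92 on the glucose intolerance arrays and of 1.04, 0.57 and 0.75 on the normal tolerance arrays. Its mean of 0.80 was 0.32 with dim input probes kept and 0.46 with a run gap of 1000 bp, below HoxA run 3 (0.48 and 0.51) in both. HoxB run 9 (chr11:96183335-96184277, 4 probes) was at -2.32, -2.12 and -2.49 on the glucose intolerance arrays and at -2.76, -1.47 and -1.502 on the normal tolerance arrays. The means of its 4 probes lay between -2.93 and -1.44. Its MeDIP spots were above background at 7 of 12 in the glucose intolerance group and at 6 of 12 in the normal tolerance group, so the exact depth of this dip is limited by the MeDIP background.

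HoxC was the flattest cluster, with an SD of 0.33 across its runs against 0.58 in HoxA, 0.76 in HoxB and 0.44 in HoxD. HoxC run 3 (chr15:102778721-102779180, 3 probes), nominally its highest run (mean 0.154, against 0.153 in run 5), had ratios of 0.31, -0.18 and 0.02 on the glucose intolerance arrays and of 0.22, 0.18 and 0.39 on the normal tolerance arrays. Its sign was not stable over arrays, and no HoxC run was positive on all 6. HoxC run 7 (chr15:102819701-102820555, 4 probes) was at -1.07, -0.89 and -0.85 on the glucose intolerance arrays and at -1.15, -0.64 and -0.78 on the normal tolerance arrays, below 0 throughout.

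HoxD carried its highest and lowest runs next to each other. HoxD run 3 (chr2:74511869-74513431, 8 probes) had ratios of 0.63, 0.45 and 0.68 on the glucose intolerance arrays and of 0.52, 0.17 and 0.34 on the normal tolerance arrays. HoxD run 4 (chr2:74516567-74517351, 4 probes) was at -1.24, -0.54 and -0.77 on the glucose intolerance arrays and at -1.46, -1.09 and -0.29 on the normal tolerance arrays. The groups overlapped in both, and run 4 spread more over arrays (SD 0.36 in the glucose intolerance group and 0.60 in the normal tolerance group) than most Hox runs. MeDIP was above background at 10 of its 12 spots in the glucose intolerance group and at 8 of 12 in the normal tolerance group.

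The Hox probes and the rest of the array are different probes, whose ratios also depend on sequence and CpG number, so a gap between them is a description of these probe sets and not of methylation. The mean over the 283 Hox probes minus the mean over the 113602 other tested probes was 0.14, 0.01 and 0.07 on the glucose intolerance arrays and 0.14, 0.09 and 0.17 on the normal tolerance arrays. All 6 values were above 0, with a mean of 0.10 ± 0.06 (SD, n = 6 arrays). An exact two-sided sign-flip permutation gave p = 0.03125, the smallest that 6 arrays allow, and 0.0625 after loess; since every array carries the same probes, this p measures only how well the gap repeats from array to array. Of the Hox probes 15.2% had a mean ratio below -1, as did 20.0% of the other probes. By cluster this difference was 0.13 in HoxA, 0.01 in HoxB, 0.05 in HoxC and 0.19 in HoxD, with exact sign-flip permutation p adjusted over the 4 clusters of 0.0625, 0.875, 0.208 and 0.0625. The gap in HoxB was smaller than its SD over arrays, 0.06. Hox probes also lay above the 290 tested probes within 500 kb outside the clusters, by 0.08 ± 0.03 (SD, n = 6 arrays; exact sign-flip permutation p = 0.03125), but by only 0.0055 against probes within 250 kb and 0.026 against probes within 1000 kb, so this comparison depends on which neighbours are taken. The sequence and CpG number of the probes were not used here, and their part in these gaps was not tested.

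The group difference over all Hox probes was no larger than that of the array as a whole. The mean ratio over all Hox probes was -0.01, -0.06 and -0.07 on the glucose intolerance arrays, against -0.14, -0.10 and -0.10 on the normal tolerance arrays. The groups did not overlap: the mean was -0.05 ± 0.03 in the glucose intolerance group and -0.11 ± 0.03 in the normal tolerance group (SD, n = 3 each), a difference of 0.06 (exact permutation p = 0.1, the smallest that 3 arrays against 3 allow). The other probes of the array differed by more, 0.13, at -0.12 ± 0.04 in the glucose intolerance group and -0.25 ± 0.05 in the normal tolerance group. Relative to them the Hox probes were lower in the glucose intolerance group by a difference of -0.06 (exact permutation p = 0.2). The sign of the plain Hox difference itself depended on scaling: it was -0.09 after loess, -0.03 after quantile normalization and -0.02 when arrays were centred on the tested probes.

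**Figure D2:**
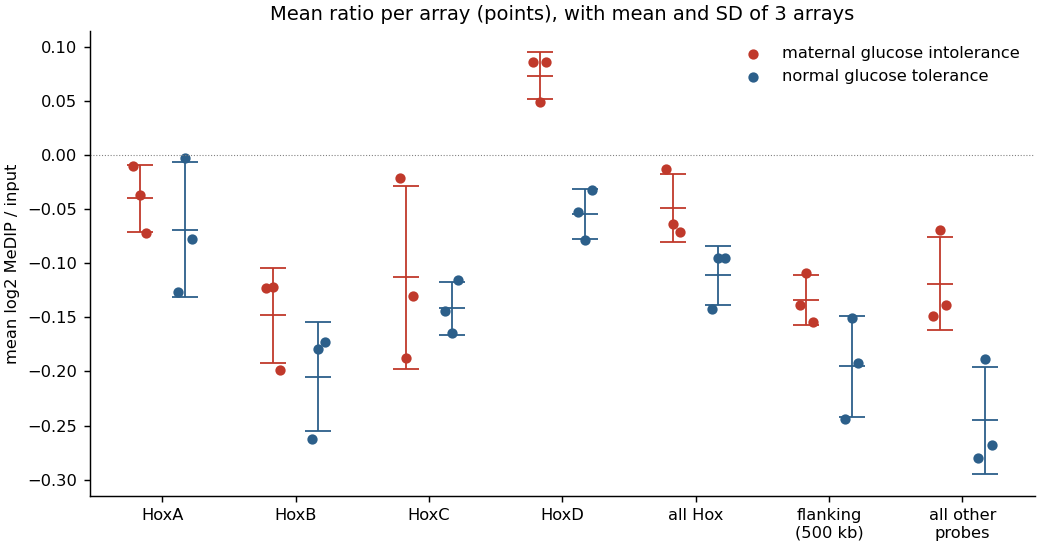
Mean log2 MeDIP over input of each array (points; y axis) in the 4 Hox clusters, all Hox probes, the probes within 500 kb outside the clusters and all other probes (x axis), with maternal glucose intolerance in red left of normal glucose tolerance in blue. Bars are the mean and SD of 3 arrays; the groups do not overlap in HoxD, all Hox probes and all other probes.

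Among the clusters HoxD showed the largest group difference and HoxA and HoxC the smallest. HoxD averaged 0.09, 0.05 and 0.09 on the glucose intolerance arrays and -0.05, -0.08 and -0.03 on the normal tolerance arrays. Every glucose intolerance array was above every normal tolerance array, with means of 0.07 ± 0.02 in the glucose intolerance group and -0.05 ± 0.02 in the normal tolerance group (SD, n = 3 each) and a difference of 0.13 (exact permutation p = 0.1; adjusted over the 4 clusters p = 0.4; -0.03 after loess). Relative to the other probes of the array this difference was 0.001 (exact permutation p = 1), since the rest of the array was shifted by as much. HoxA differed by 0.03 (exact permutation p = 0.6), at -0.04 ± 0.03 in the glucose intolerance group and -0.07 ± 0.06 in the normal tolerance group. HoxB differed by 0.06 (exact p = 0.3), at -0.15 ± 0.04 in the glucose intolerance group and -0.20 ± 0.05 in the normal tolerance group. HoxC differed by 0.03 (exact p = 0.8), at -0.11 ± 0.08 in the glucose intolerance group and -0.14 ± 0.02 in the normal tolerance group. All 3 turned negative after loess, after quantile normalization and when centred on the tested probes. Relative to other probes they were lower in the glucose intolerance group, by -0.10 in HoxA (exact permutation p = 0.1), -0.07 in HoxB (p = 0.3) and -0.10 in HoxC (p = 0.2). In the single channels, each centred on its own array median on the log2 scale so that their differences need not add up to that of the ratio, input signal over Hox probes was higher in the glucose intolerance group by 0.17 log2 units (exact permutation p = 0.1) against 0.04 over other probes, and MeDIP signal by 0.11 (p = 0.1) against 0.04. The part of the input in the ratios was not tested.

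In windows of 25 kb the cluster means hid differences of both signs. In HoxD the window between 50 and 75 kb from the cluster start (25 probes) averaged -0.08, -0.09 and -0.07 on the glucose intolerance arrays and -0.29, -0.31 and -0.36 on the normal tolerance arrays. The groups were apart there, and the arrays of each lay within 0.1 of each other. At the low-coordinate end of HoxA the first 25 kb (13 probes) went the other way, with 0.25, 0.15 and 0.12 on the glucose intolerance arrays and 0.53, 0.34 and 0.28 on the normal tolerance arrays. These windows were picked from 22 after their values were seen and are given with no test.

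Single runs and probes were compared with limma over the whole array, with Benjamini-Hochberg adjustment over all runs or all probes. Of the 48 Hox runs, 0 passed an adjusted p of 0.05, as did 0% of all 18562 runs. At an unadjusted p under 0.05 there were 6 Hox runs (12.5%; 4 with a higher and 2 with a lower ratio under maternal glucose intolerance), and over the array this share was 15.8% (13.3% higher and 2.51% lower). The arrays of the groups did not overlap in 8 Hox runs (16.7%; 5 higher and 3 lower), against 22.2% of all runs (17.5% higher and 4.62% lower). With 48 runs both shares were near those of the whole array, a little below in total and a little above on the lower side. The median difference was 0.09 over Hox runs and 0.12 over all runs. Of the 48 Hox runs 30 were on the higher side and 18 on the lower, a smaller higher share than the 70.9% of all runs. The count of 6 was 1 (2.08%) with scan as a random block, where 5.05% of all runs had such a p. It was 11 (22.9%) without normal tolerance array 1, where 28.3% of all runs did. Without any one of the other 5 arrays it was 1 to 3 (2.08% to 6.25%), where 8.44% to 14.7% of all runs did.

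**Figure D3:**
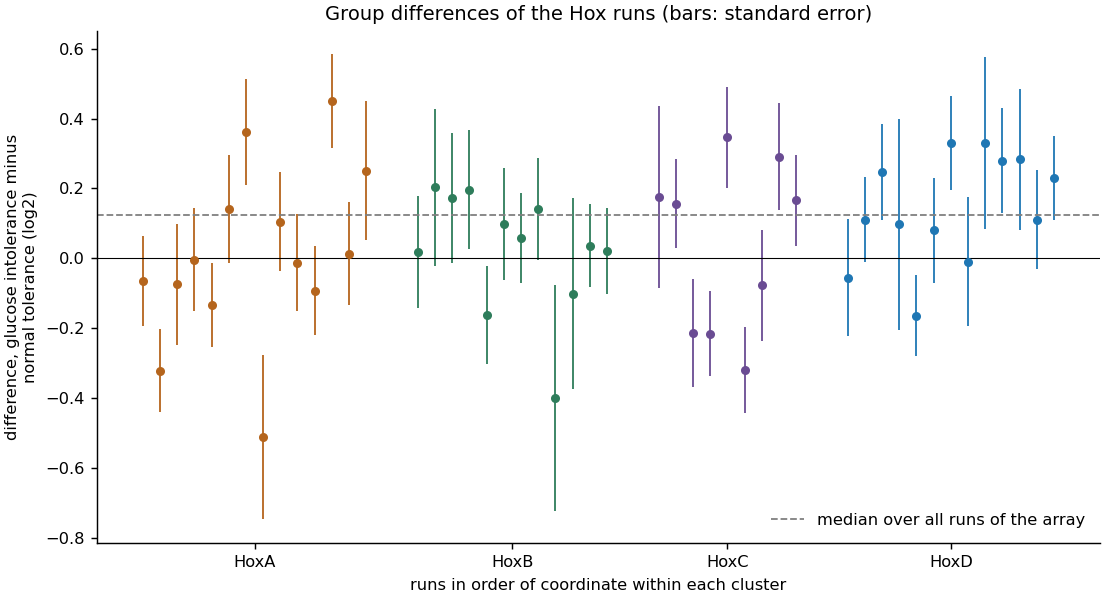
Difference in log2 MeDIP over input, glucose intolerance minus normal tolerance (y axis), for the 48 Hox runs in order of coordinate within each cluster (x axis), with the standard error of the limma fit as bars. The dashed line is the median of all runs on the array, 0.12, and the Hox runs scatter to both sides of it between -0.51 and 0.45.

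HoxA run 12 (chr6:52193942-52195067, 6 probes) had the lowest p of all Hox runs. Its ratios were 0.79, 0.78 and 0.60 on the glucose intolerance arrays and 0.39, 0.35 and 0.09 on the normal tolerance arrays. The groups did not overlap, and 5 of its 6 probes were higher in the glucose intolerance group, with all MeDIP spots above background. The difference was 0.45 ± 0.13 (SE; limma adjusted p = 0.235). Under all 19 alternatives tried the difference stayed positive, between 0.26 and 0.51, and it passed the adjusted threshold in 2 of them, normexp background correction and the authors' deposited table. The neighbouring HoxA run 13, which starts under 1 kb further on, had overlapping groups: its ratios were 0.62, 0.52 and 0.48 on the glucose intolerance arrays and 0.77, 0.51 and 0.30 on the normal tolerance arrays.

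The lowest p on the lower side of HoxA was at run 2 (chr6:52114331-52115926, 7 probes). It was at -0.15, -0.19 and -0.15 on the glucose intolerance arrays and at 0.30, 0.10 and 0.07 on the normal tolerance arrays. The groups did not overlap, yet 4 of its probes were lower and 3 higher, with probe differences between -1.26 and 0.43. The run difference was -0.32 ± 0.12 (SE; limma adjusted p = 0.276). Over 19 alternatives it lay between -0.43 and -0.01, at -0.16 with both channels above background, -0.09 in the authors' deposited table and -0.01 with normexp.

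In HoxB 0 of 12 runs had groups apart, where 22.2% of all runs did, and 0 had an unadjusted limma p under 0.05, where 15.8% of all runs did. The lowest p on the higher side was at HoxB run 4 (chr11:96142076-96143426, 5 probes), with ratios of -0.65, -0.28 and -0.55 on the glucose intolerance arrays and of -0.60, -0.99 and -0.48 on the normal tolerance arrays. The groups overlapped, the difference was 0.20 ± 0.17 (SE; limma adjusted p = 0.568), and it was -0.10 in the authors' deposited table. On the lower side it was at run 9, the deep dip described above, with a difference of -0.40 ± 0.32 (SE; limma adjusted p = 0.543). Apart from Ch_220697_0016661, where no array had MeDIP above background, the probes of run 9 were lower in the glucose intolerance group. Normal tolerance array 1, at -2.76 over the run, was the lowest of all 6 arrays, and without it the run difference was -0.82. It was -0.18 without normal tolerance array 2, -0.20 without array 3, -0.07 with dim input probes kept and -0.04 with normexp background correction, so its size is not settled.

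HoxC had 3 of its 9 runs with groups apart, where 22.2% of all runs were. In HoxC run 5 (chr15:102795928-102797675, 9 probes) the ratios were 0.50, 0.24 and 0.25 on the glucose intolerance arrays and 0.20, -0.10 and -0.16 on the normal tolerance arrays. The difference was 0.35 ± 0.14 (SE; limma adjusted p = 0.303), with 4 probes higher and 4 lower among those tested. One probe with a difference of 1.82, described below, weighed heavily: where both channels had to exceed background, which removed it, the run difference was 0.14. In HoxC run 6 (chr15:102806370-102807703, 6 probes) the ratios were -0.22, -0.41 and -0.17 on the glucose intolerance arrays and -0.01, 0.13 and 0.04 on the normal tolerance arrays. Its difference was -0.32 ± 0.12 (SE; limma adjusted p = 0.282), although 4 of its 6 probes were higher in the glucose intolerance group. One probe with a difference of -2.49, described below, carried the sign of the run mean. Normal tolerance array 1 had an outlier spot at that probe, so its run value leaves the probe out. The groups lie apart here over unequal sets of probes, and with outlier spots kept the run difference was -0.24. Over 19 alternatives the difference lay between -0.51 (quantile normalization) and -0.08 (normexp). HoxC run 8 was the third, with 0.29, -0.21 and -0.13 on the glucose intolerance arrays and -0.37, -0.30 and -0.26 on the normal tolerance arrays.

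HoxD had 3 runs with groups apart among 13 (23.1%, against 22.2% of all runs). HoxD run 7 (chr2:74534523-74536204, 6 probes) had ratios of 0.73, 0.47 and 0.61 on the glucose intolerance arrays and of 0.44, 0.23 and 0.15 on the normal tolerance arrays. The difference was 0.33 ± 0.13 (SE; limma adjusted p = 0.294), and 5 of 6 probes were higher. Over 19 alternatives it lay between 0.17 (loess) and 0.41. HoxD run 5 (chr2:74519091-74520275, 5 probes) was lower, with 0.32, 0.38 and 0.35 on the glucose intolerance arrays and 0.40, 0.60 and 0.54 on the normal tolerance arrays. Its groups were apart by a narrow margin, the difference was -0.16 ± 0.12 (SE; limma adjusted p = 0.489), and with dim input probes kept it was 0.12. HoxD run 13 at the Hoxd1 end of the gene order was the third, with 0.04, -0.14 and 0.06 on the glucose intolerance arrays and -0.29, -0.16 and -0.29 on the normal tolerance arrays. Its difference was 0.23 ± 0.12 (SE; limma adjusted p = 0.376), with 4 probes higher and 2 lower. A probe with a difference of 1.39, described below, weighed heavily in this run mean.

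Single probes differed more than runs but passed no adjusted threshold. Of the 283 tested Hox probes, 0 passed an adjusted p of 0.05, as did 0.000878% of all 113885 tested probes (1 probe). An unadjusted p under 0.05 was reached by 35 Hox probes (12.4%), against 15.9% of all probes. The glucose intolerance group was higher at 22 of the 35 and lower at 13, where the array had 10.4% higher and 5.56% lower. This split depended on scaling, with 11 higher and 35 lower after loess, 20 and 31 after quantile normalization, 17 and 17 when centred on the tested probes, 52 and 11 with normexp background correction and 50 and 21 in the authors' deposited table. By cluster there were 9 higher and 7 lower in HoxA, 0 higher and 1 lower in HoxB, 5 higher and 2 lower in HoxC, and 8 higher and 3 lower in HoxD. Without normal tolerance array 1 the count was 75 (26.5%), with 28.7% of all probes then at such a p. Without normal tolerance array 3 it was 20 (7.07%), with 8.91% of all probes. A difference of more than 1 log2 unit in either direction was seen at 14 Hox probes, 6 in HoxA, 0 in HoxB, 3 in HoxC and 5 in HoxD. That is 4.95% of the tested Hox probes, where 5.46% of all tested probes passed the same size.

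**Figure D4:**
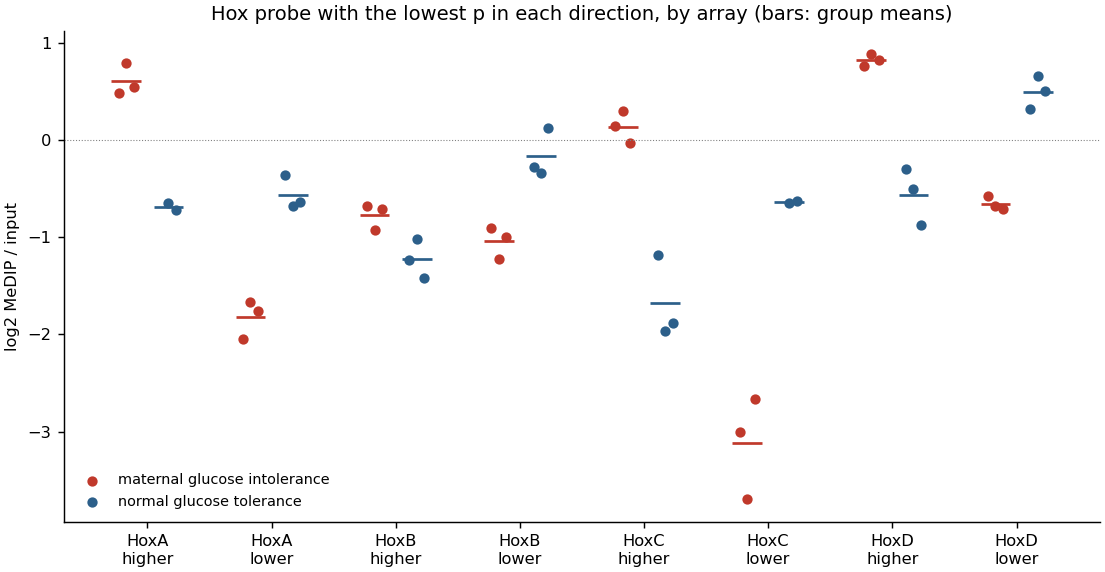
Log2 MeDIP over input (y axis) of the Hox probe with the lowest p in each direction in each cluster (x axis), with maternal glucose intolerance in red left of normal glucose tolerance in blue. Points are single arrays and bars are group means. The 8 probes were picked by their p on these same arrays, so the gap between the groups is no separate result. At 2 of them only 2 normal tolerance arrays show, because array 1 was marked as an outlier spot.

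In HoxA the probe Ch_220697_0126835 (chr6:52163262-52163306) had ratios of 0.48, 0.80 and 0.55 on the glucose intolerance arrays and of -0.65 and -0.72 on normal tolerance arrays 2 and 3, array 1 being an outlier spot left out of its fit. The difference was 1.29 ± 0.24 (SE; limma adjusted p = 0.125). With outlier spots kept, which brings in array 1, it was smaller, 0.96 (limma adjusted p = 0.207). The difference of 1.29 lay in the input channel, which differed by -1.37 log2 units while the MeDIP channel differed by -0.16. On the lower side, Ch_220697_0126793 (chr6:52114791-52114842, in run 2) was at -2.05, -1.66 and -1.76 on the glucose intolerance arrays and at -0.36, -0.68 and -0.64 on the normal tolerance arrays. Here the MeDIP channel carried most of the difference of -1.26 (limma adjusted p = 0.11), with -1.05 in MeDIP and 0.34 in input, and MeDIP was above background on 2 of the 3 glucose intolerance arrays.

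The HoxB probes had the smallest differences of the 4 clusters. Ch_220697_0016685 (chr11:96226345-96226390) had ratios of -0.67, -0.92 and -0.70 on the glucose intolerance arrays and of -1.23, -1.02 and -1.42 on the normal tolerance arrays, a difference of 0.46 (limma adjusted p = 0.34). Ch_220697_0016670 (chr11:96204281-96204325) was at -0.902, -1.22 and -0.997 on the glucose intolerance arrays and at -0.28, -0.34 and 0.13 on the normal tolerance arrays, a difference of -0.88 (limma adjusted p = 0.161). Its input channel differed by 0.74 and its MeDIP channel by -0.26.

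The HoxC probes had the largest differences. Ch_220697_0046075 (chr15:102795928-102795983, in run 5) was at 0.15, 0.30 and -0.03 on the glucose intolerance arrays and at -1.19, -1.97 and -1.88 on the normal tolerance arrays. The difference of 1.82 ± 0.26 (SE; limma adjusted p = 0.103) lay in the MeDIP channel (2.03), and MeDIP was above background on 1 of the 3 normal tolerance arrays, so the low values have a floor under them; with dim MeDIP spots raised to that floor it was 1.59. Ch_220697_0046086 (chr15:102806588-102806632, in run 6) was at -3.001, -3.70 and -2.67 on the glucose intolerance arrays and at -0.64 and -0.63 on normal tolerance arrays 2 and 3, array 1 being an outlier spot left out. Its difference of -2.49 ± 0.34 (SE; limma adjusted p = 0.103) also lay in MeDIP (-2.09), with MeDIP above background on all 6 arrays. With outlier spots kept the difference was -2.21 (limma adjusted p = 0.106).

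In HoxD the probe Ch_220697_0084747 (chr2:74600928-74600972, in run 13) had ratios of 0.76, 0.89 and 0.83 on the glucose intolerance arrays and of -0.30, -0.51 and -0.88 on the normal tolerance arrays. The difference of 1.39 ± 0.23 (SE; limma adjusted p = 0.103) was split between a lower input (-0.87) and a higher MeDIP signal (0.40). Ch_220697_0084679 (chr2:74517926-74517970), which lies in no run, was at -0.58, -0.68 and -0.71 on the glucose intolerance arrays and at 0.32, 0.66 and 0.51 on the normal tolerance arrays. Its difference of -1.16 ± 0.20 (SE; limma adjusted p = 0.111) lay in MeDIP (-1.30), while input differed by -0.02. Of the runs on either side, the nearer HoxD run 4 had a difference of 0.10 and HoxD run 5 one of -0.16, so neither shared its size.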

How the data were processed

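MeDIP and input DNA of 6 pancreas samples were hybridised to 2-colour tiling arrays on mm9. Agilent Feature Extraction 11.0.1.1 produced the deposited scanner files, per the file headers, and their spot intensity values are background-subtracted and scaled by a linear dye normalization. The deposited log10 ratio of red over green was computed by that software from the processed signals, per the file headers, and served only as a check. The authors also deposited a table of log2 values whose background treatment and normalization are not given in the sources used here; it correlated with the scanner ratios at r = 0.81 to 0.89 per array, so it is read as MeDIP over input, and its array medians were 0.027 to 0.038.

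Ratios were log2 of processed Cy5 over processed Cy3, centred on each array's median over non-control probes, with outlier spots set to missing. Probes needed input above background on all arrays and 2 values per group. Groups were compared with limma 3.58.1 (lmFit, eBayes) in R 4.3.3, over all probes and all runs, and by exact two-sided permutation over arrays; the fits were tested on simulated data. The normexp alternative used median instead of mean spot signals, since the files hold no mean signals. Runs and probes were named as those with the highest and lowest level and the lowest p in each direction in each cluster. The members, lists and tests were chosen with earlier results of these data known. Precision is limited by 3 arrays per group. Alternatives covered filters, background correction, normalization, scan and replicate blocks, variance settings, run gap, flank width and leaving out each array.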

Additional observations from a re-analysis of the deposited data

How the results depend on the processing

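The array-wide count of probes past the adjusted threshold, 1, was 0 with no filter on dim input, after loess, when centred on the tested probes and with scan as a random block. It was 6 with dim MeDIP spots raised, 229 with both channels above background, 888 with a trended robust variance, 1801 after quantile normalization, 6372 in the authors' deposited table and 6456 with normexp. Hox probes past it, 0 here, numbered 2 with both channels above background, 6 with the trended robust variance, 8 after quantile normalization, 13 with normexp and 15 in the deposited table. Hox runs past it, 0 here, numbered 2 of 48 with normexp, where 1857 of all 18562 runs passed, and 2 of 48 in the deposited table, where 1566 did. At an unadjusted p under 0.05 the 35 Hox probes became 63 with normexp, 71 in the deposited table and 16 with scan as a random block, where 28.0%, 29.1% and 5.16% of all probes did. The 6 Hox runs became 14, 9 and 1, where 35.1%, 31.1% and 5.05% of all runs did. Leaving out 1 array gave 0 to 4025 of all 113885 probes and 0 to 14 of the 283 Hox probes past the adjusted threshold, the higher counts both without normal tolerance array 1. At the unadjusted p it gave 20 to 75 Hox probes and 1 to 11 Hox runs, again highest without that array. Over the whole array 8.91% to 28.7% of probes and 8.44% to 28.3% of runs then had such a p. The cause of these changes was not tested.

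Same-numbered arrays of the groups deviated together at r = 0.57, 0.54 and 0.04 across runs, and the labels do not say that numbers pair arrays, so the numbers were not taken as pairs, although the best match of each glucose intolerance array was the normal tolerance array of its number. With a replicate block 4622 of all 113885 tested probes passed the adjusted threshold, and 12 of the 283 Hox probes did. Of the 48 Hox runs 0 passed, where 859 of all 18562 runs (4.63%) did.

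The median difference over all tested probes was 0.13 as reported and -0.02 after loess. After loess the group difference was -0.089 over all Hox probes, -0.106 in HoxA, -0.084 in HoxB, -0.146 in HoxC and -0.032 in HoxD. After quantile normalization it was -0.032 over all Hox probes, -0.064 in HoxA, -0.070 in HoxB and -0.054 in HoxC. Centred on the tested probes it was -0.019 over all Hox probes, -0.052 in HoxA, -0.024 in HoxB and -0.052 in HoxC. HoxC was also at -0.029 with no filter, at -0.022 where both channels had to exceed background, and between -0.018 (without glucose intolerance array 1) and 0.066 with 1 array left out. The excess of Hox over other probes was 0.096 after loess (exact permutation p = 0.0625) and 0.088 to 0.121 with 1 array left out, where 5 arrays cannot go below p = 0.0625. The excess over flanking probes was 0.097 by medians, 0.0055 with a 250 kb flank, 0.026 with a 1000 kb flank and 0.076 to 0.092 with 1 array left out. Among named items, HoxB run 4 was at -0.10 in the deposited table, the level of HoxC run 3 was -0.21 with no filter and -0.083 after loess, and the difference of HoxD run 5 was 0.12 with no filter. Levels of named runs also shrank: HoxB run 9, -2.11 as reported, was -0.91 with no filter, -0.80 with normexp and -1.02 in the deposited table. With normexp HoxA run 14 was at -0.46 against -1.18 as reported, HoxC run 7 at -0.40 against -0.90 and HoxD run 4 at -0.29 against -0.90. After loess HoxA run 3 was at 0.32 against 0.66 as reported and HoxD run 3 at 0.19 against 0.47. The 8 named probes were picked by their p on these same arrays, which every alternative reuses, so keeping their direction is no separate result. They kept it in all 142 pairs of probe and alternative run. In 35 pairs they passed the adjusted threshold, in settings where up to 6456 of all probes also passed. With 3 arrays a group and scans that hold 1 group each, differences of the size seen here cannot be told apart from scan.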

Other observations

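Neighbouring probes gave little information about each other. Over 206 pairs of adjacent tested Hox probes in the same run, their mean ratios correlated at r = 0.11 (0.25 in HoxA, -0.03 in HoxB, -0.18 in HoxC and 0.25 in HoxD), a description across probes that share arrays and differ in sequence. Single Hox probes had means between -3.76 and 1.74, and 163 of the 257 with a value on every array had the same sign on all 6.

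At 5 tested Hox probes no array had MeDIP well above background, 4 of them in HoxB (in runs 4, 7, 8 and 9) and 1 in HoxA run 14. No difference is given for these 5. Their measured group means lay between -3.73 and -2.93 in the glucose intolerance group and between -4.36 and -2.47 in the normal tolerance group. With dim input probes kept, 400 Hox probes could be tested, and an unadjusted limma p under 0.05 was reached by 25 with a higher and 23 with a lower ratio under maternal glucose intolerance, where 16.4% of all probes passed.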
